A study of Homo sapiens with 4 samples.

Results

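Dinucleotide repeats are runs of DNA in which a unit of 2 bases is repeated head to tail. The BrdU peaks described here are the autosomal peaks that overlapped a perfect run of this kind, of 20 bp or more, in the human genome build hg38. Among the listed peaks they were chosen by sequence alone, with an overlap of at least 1 bp, and no BrdU signal value entered the choice. The choice was made with earlier results of these data known. Of 32710 autosomal peaks, 573 were members, or 1.75%, out of 33295 peaks listed on all chromosomes. They covered 567 separate tracts. When overlapping or touching peaks were merged into sites, the members fell in 463 of 25287 autosomal sites.

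The peaks came from BrdU-Seq of BJ-hTERT cells, human fibroblasts immortalized with telomerase, that were synchronized by serum starvation and released into the cell cycle. Cells were pulsed with BrdU, a thymidine analogue incorporated into newly made DNA, before each of 5 timepoints (16, 19, 22, 24 and 28 h) in 2 repeats, and peaks were called against Input DNA. Peaks of all timepoints stand in one list of positions with no signal, score, timepoint or repeat. Neither read depth nor replicate error is therefore known, and no test between conditions could be made. The 4 samples of the series, RNAPII and PCNA ChIP-Seq at 14 and 16 h, were not analysed here. Intervals given below are 95% Wilson intervals on counts of tracts or sites, and they cover counting error only. Where a count was 0, the limit given is 3 divided by the number of tracts, which is lower than the Wilson limit. Tracts of one site are not independent of each other, so the intervals are too narrow where a site holds several tracts, and numbers of sites are given for the main counts.

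The units fall into 4 classes when the reverse complement and the other reading frame of a unit are pooled. AC repeats, read GT on the other strand, are the most common dinucleotide repeats of mammalian genomes and can adopt left-handed Z-DNA. AG repeats, read CT on the other strand, have all purines on one strand and can fold into triplex DNA. AT repeats can extrude cruciforms and lie in some fragile sites, while CG repeats are rare because methylated CpG is lost by mutation. Repeats of this kind are known obstacles to DNA polymerases and gain or lose units when a polymerase slips.

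The sequences below show the peaks over the longest AC and AT tracts, or the part around the tract. Each is the hg38 reference strand, 5′ to 3′, with perfect dinucleotide tracts of 20 bp or more in capitals. The letters of the AC and AG classes can lie on either strand.
AC, 53 bp tract in ALDH1A2 (chr15:58329071-58329310): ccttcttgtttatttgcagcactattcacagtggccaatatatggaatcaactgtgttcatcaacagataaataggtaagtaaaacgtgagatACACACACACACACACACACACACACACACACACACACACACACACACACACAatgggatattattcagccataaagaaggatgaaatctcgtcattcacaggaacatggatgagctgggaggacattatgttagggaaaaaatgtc
AT, 33 bp tract in ODAD2 (chr10:27827200-27827412): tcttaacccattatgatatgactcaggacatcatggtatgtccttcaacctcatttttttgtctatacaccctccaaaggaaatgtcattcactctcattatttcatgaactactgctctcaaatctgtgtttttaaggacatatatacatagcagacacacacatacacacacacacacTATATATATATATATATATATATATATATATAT

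The peaks over the longest tract of each class were unlike in how the tract sat in them. The AC tract lay in ALDH1A2, which encodes an enzyme of retinoic acid synthesis, outside its canonical transcript, in a site of depth 3. Depth is the largest number of listed peaks over one base of a site, and the ALDH1A2 tract itself was under 1 peak. The longest AG tract, of 78 bp, filled 28.3% of its 276 bp peak in PLCL1, again outside the canonical transcript, and sat at depth 1. The AT tract, in intron 19 of ODAD2, a gene of the ciliary dynein docking complex, began inside its peak and ran past its end. In intron 9 of EFCAB13 a CG tract of 24 bp followed directly on a TG tract of 26 bp, and both lay within one peak of 563 bp.

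A second pair of sequences, an AC tract of median length and one in EGFR, shows tracts set in longer, broken repeats. Beside the perfect tract, their bases were largely more of the same letters, interrupted by single other bases and short runs of them. Measured as below by flank steps, they stood at 55.1% and 56.6%, far above the AC members' median of 19.2%.
AC, 28 bp tract, intergenic (chr1:30634637-30634784): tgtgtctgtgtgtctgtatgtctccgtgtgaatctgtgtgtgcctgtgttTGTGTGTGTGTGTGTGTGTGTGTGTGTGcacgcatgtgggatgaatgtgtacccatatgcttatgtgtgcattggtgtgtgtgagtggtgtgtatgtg
AC, 21 bp tract in EGFR (chr7:55095662-55095802): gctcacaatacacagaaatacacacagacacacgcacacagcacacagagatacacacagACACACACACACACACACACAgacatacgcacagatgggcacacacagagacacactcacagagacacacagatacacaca

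The AC class held most of the members. Of 67880 autosomal AC tracts, 413 overlapped a peak, or 0.608% (0.553 to 0.670%), and they accounted for 446 peaks in 376 sites. The AG class had the higher share, with 141 of 13657 tracts, or 1.03% (0.876 to 1.22%), in 91 sites. However, 56 of these AG tracts lay in a single window of chromosome 21 (8000001 to 9000000) that holds copies of the ribosomal RNA genes. Without this window, 85 of 13568 AG tracts had a peak, or 0.626% (0.507 to 0.774%), and its interval overlapped that of the AC class. The main AG values are therefore given with and without the window, which is described further on.

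AT tracts were nearly empty of peaks. Only 12 of 20515 AT tracts overlapped a peak, or 0.0585% (0.0335 to 0.102%), although they outnumbered AG tracts in the genome. Of 50 CG tracts 1 had a peak, a share of 2%. Over all classes, 0.555% of 102102 tracts had a peak, while peaks covered 0.323% of the known autosomal bases. A tract is counted as soon as 1 base is shared, which raises the share of tracts over that of bases. At the tract midpoint, a single base, 0.510% of AC, 0.952% of AG (0.545% without the window) and 0.0439% of AT tracts lay inside a peak.

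Among tracts of the same minimum length with other unit lengths, 0.00738% of 162594 single-base runs had a peak, 12 in all. The share was 0.335% (0.272 to 0.414%) for units of 3 bp, 0.957% for 4 bp, 0.963% for 5 bp and 1.15% for 6 bp. Dinucleotide tracts thus lay between the units of 3 bp and those of 4 to 6 bp.

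AC and AG tracts with a peak differed from those without in the sequence beside them. For each tract, the steps from one base to the next in the 100 bp on each side were counted, and the share that alternated between the tract's own 2 letters was taken as the flank steps. This measure was chosen after the sequences had been seen. AC tracts without a peak had a median of 14.1% flank steps, and AC tracts with a peak 19.2%. In AC tracts with a peak, 153 of 413 had 25% or more flank steps, or 37.0% (32.5 to 41.8%), against 7.21% of AC tracts without a peak weighted to the same lengths.

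Across the range of flank steps the share of AC tracts with a peak rose from 0.265% (0.180 to 0.391%) where flank steps were under 10% to 0.408% (0.355 to 0.469%) at 10 to 20% and 0.736% (0.577 to 0.939%) at 20 to 30%. At 30% or more it reached 5.89% (4.98 to 6.95%), with 130 of 2208 tracts in 108 sites. The rise was nearly as large without the peaks that are tandem arrays, defined by a self-match of 70% or more at some offset of 7 to 120 bp. With those left out, 112 tracts of the top class, or 5.07% (4.23 to 6.07%), still had one.

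AG tracts followed the same course. Their share was 0.163% (0.0556 to 0.480%) under 10% flank steps, 0.223% at 10 to 20%, 0.652% at 20 to 30% and 4.44% (3.67 to 5.35%) at 30% or more, where 103 tracts lay in 54 sites. Without the window of chromosome 21 the top class still stood at 2.09% (1.57 to 2.77%), with 47 of 2251 tracts in 41 sites. AT tracts did not show it, with 2, 5, 5 and 0 tracts with a peak in the 4 classes, the last among 4627 tracts, where a count of 0 allows a share of up to 0.0648%.

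**Figure D1:**
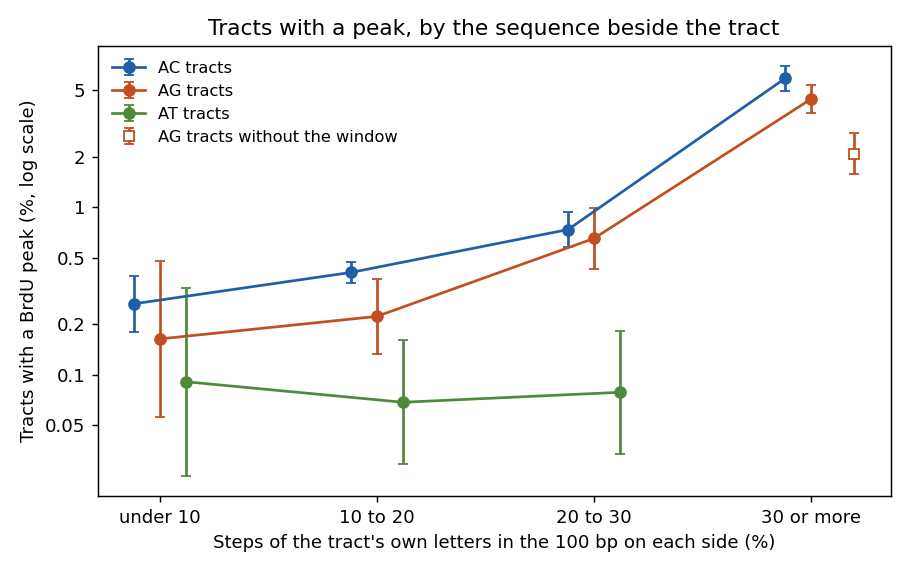
Share of tracts with a BrdU peak (%, log scale) against the share of flank steps in the tract's own letters (%), for AC, AG and AT tracts, with 95% Wilson intervals. AC and AG tracts climb to 5.89% and 4.44% in the last class (open square, AG without the window of chromosome 21, 2.09%), while AT tracts stay under 0.1% and their last class, at 0, is not drawn.

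The flank also went with the length of the tract. As a whole, AC tracts with a peak were shorter than those without, with medians of 28 and 31 bp. Their share with a peak fell from 0.864% (0.732 to 1.02%) at 20 to 24 bp to 0.562% at 35 to 39 bp and 0.161% (0.0627 to 0.414%) at 50 bp and more, and none of the 254 AC tracts of 60 bp or more had a peak, which allows a share of up to 1.18%. Where flank steps were under 20%, AC tracts with a peak had a median length of 31 bp, and their share hardly moved between 20 and 39 bp, at 0.410% (20 to 24 bp), 0.424% (25 to 29 bp) and 0.419% (30 to 39 bp). It was 0.306% (0.221 to 0.423%) at 40 to 49 bp. Where flank steps were 20% or more, the median was 25 bp, and the share went from 2.15% (1.75 to 2.64%) at 20 to 24 bp to 1.60% (1.21 to 2.12%) at 30 to 39 bp and 0.981% (0.534 to 1.80%) at 40 to 49 bp.

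AG tracts had the same median length with and without a peak, 25 bp, and 24 against 25 bp without the window. Their share showed no steady course with length in either flank class. With flank steps of 20% or more it was 2.17% at 20 to 24 bp (59 tracts in 45 sites) and 3.00% at 30 to 39 bp (30 tracts in 22 sites), and 1.38% and 1.33% without the window. The AT tracts with a peak were short, with a median of 21 bp against 28 bp, and the longest was 33 bp. One of median length lay between genes, 72.8 kb from CDC42EP3, in the peak chr2:37811275-37811760. None of 5012 AT tracts of 40 bp or more had a peak, which allows a share of up to 0.0599%.

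**Figure D2:**
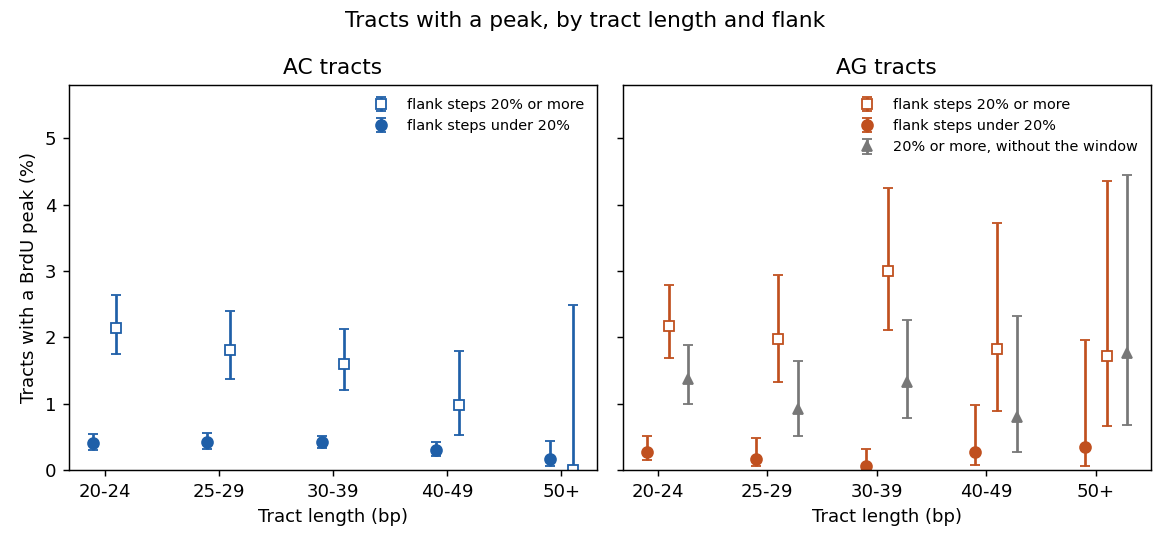
Share of tracts with a BrdU peak (%) by tract length (bp), for AC tracts (left) and AG tracts (right), split by flank steps under 20% (filled circles) and 20% or more (open squares, and grey triangles for AG tracts without the window of chromosome 21), with 95% Wilson intervals. The split by flank is wide at 20 to 24 bp, where AC tracts stand at 2.15% and 0.410%.

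The minimum of 20 bp cuts a continuous range. Just inside it, 41 of 6772 tracts of 20 bp and 53 of 7225 of 21 bp had a peak, and just outside it 91 of 9874 of 19 bp and 88 of 9682 of 18 bp. Below the minimum, shares in the AC class went on rising, to 1.49% at 16 to 19 bp and 2.66% (2.53 to 2.78%) at 12 to 15 bp, where 1739 tracts with a peak lay in 870 sites. In the AG class they were 1.12% and 1.53%, and without the window 0.788% and 1.28%. AT tracts of 12 to 15 bp had a peak in 0.107% of cases, so the class stood low at every length examined.

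Peak coverage around AC tracts was lower at the tract than beside it. It was 0.510% (0.459 to 0.566%) at the midpoint, rose to 0.642% (0.600 to 0.685%) at 150 bp on either side, and fell to 0.376% at 500 bp and 0.308% at 1000 bp. Where flank steps were under 20%, it was 0.309% (0.267 to 0.358%) at the midpoint, 0.406% (0.371 to 0.445%) at 150 bp and 0.271% (0.243 to 0.303%) at 500 bp. For these AC tracts, with little of their own letters beside them, coverage over the tract was thus close to that 500 bp away. Where flank steps were 20% or more, the 3 values were 1.56%, 1.87% and 0.926%.

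The flank classes of the AG tracts lay further apart. With flank steps under 20%, coverage was 0.136% (0.0757 to 0.243%) at the midpoint and 0.240% (0.176 to 0.328%) at 500 bp, with intervals that overlapped. With flank steps of 20% or more it was 2.15% (1.80 to 2.56%) and 1.28% (1.09 to 1.51%), and without the window 1.15% (0.902 to 1.47%) and 0.531% (0.411 to 0.686%).

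Around AT tracts the coverage dipped. It was 0.0439% at the midpoint, 0.0463% at 50 bp, 0.0951% at 100 bp, 0.195% at 200 bp and 0.283% at 500 bp, and at 750 bp it was 0.302%, close to the 0.323% of all known bases. The dip thus reached well past the tract, and at 200 bp the coverage was still below that of all known bases.

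**Figure D3:**
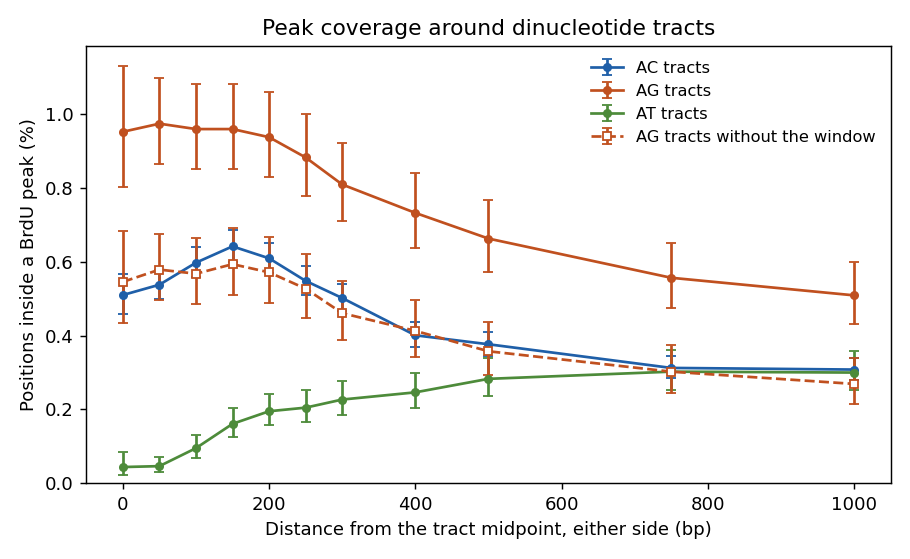
Share of positions inside a BrdU peak (%) against the distance from the tract midpoint (bp, both sides pooled), for AC, AG and AT tracts and for AG tracts without the window of chromosome 21 (dashed), with 95% Wilson intervals. AC tracts peak at 150 bp with 0.642%, AT tracts fall to 0.0439% at the midpoint, and AG tracts without the window run close to AC tracts.

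Within their peaks, tracts sat towards the edge. The distance between tract and peak midpoints was scaled to 0 at the peak's midpoint and 1 at its edge, with the widest peak taken for each tract. Of 567 tracts, 82 lay within 0.2 of the midpoint, or 14.5% (11.8 to 17.6%). At 0.8 or more, or with the tract's midpoint outside the peak, were 226, or 39.9% (35.9 to 43.9%). A tract that only touches a peak counts as a member, so the edge is favoured by the overlap rule, and when whole tracts inside the peak were required the central share was 19.9% (16.3 to 23.9%).

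The edge held 179 of 413 AC tracts, or 43.3% (38.6 to 48.2%), and 40 of 141 AG tracts, or 28.4% (21.6 to 36.3%). Without the window it held 27 of 85 AG tracts, or 31.8% (22.8 to 42.3%). In the AC class the outermost band inside the peak, from 0.8 to 1, held 109 tracts against 61 within 0.2 of the midpoint. The AC tract lay a median of 106.5 bp from the peak's midpoint and the AG tract 150 bp (110.5 bp without the window). The whole tract was inside the peak for 68.8% of AC tracts and 83.7% of AG tracts, or 76.5% without the window. Of the AT tracts, 7 of 12 lay at the edge or beyond it.

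**Figure D4:**
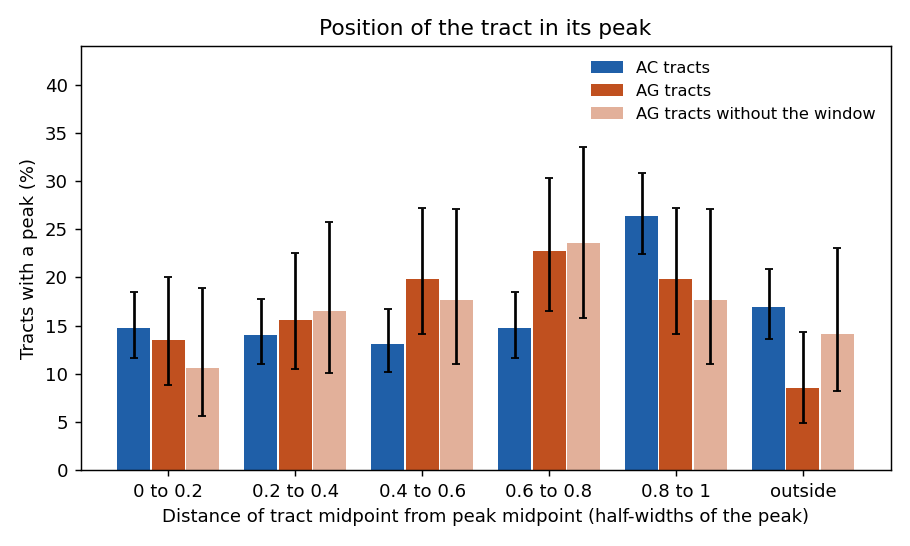
Share of tracts with a peak (%) by the distance of the tract midpoint from the peak midpoint, in units where 0 is the peak midpoint and 1 its edge, for 413 AC tracts, 141 AG tracts and the 85 AG tracts outside the window of chromosome 21, with 95% Wilson intervals. AC tracts are most frequent in the band from 0.8 to 1 (26.4%), and AG tracts at 0.6 to 0.8 (22.7%, and 23.5% without the window).

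Peaks also leaned to one side of the tract when tracts were oriented by the strand that carries the letters AC or AG. Of the AC tracts, 231 of 413 lay on the 5′ side of the peak midpoint, or 55.9% (51.1 to 60.6%), and of the AG tracts 86 of 141, or 61.0% (52.8 to 68.7%). Without the window the AG value was 63.5% (52.9 to 73.0%). Accordingly, at 150 bp the coverage was 0.704% on the 3′ side of AC tracts and 0.579% on the 5′ side, from 478 and 393 positions. For AG tracts outside the window it was 0.730% and 0.457%, from 99 and 62 positions. The side was examined after the data had been seen. The 413 AC tracts lay in 376 sites and the 141 AG tracts in 91, so these intervals are too narrow. That of the AC tracts begins close to an even split, and the coverage values rest on the same tracts and peaks.

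Sites with a dinucleotide tract were more often deep. In the whole list 20.6% of autosomal sites had a depth of 2 or more, 151 of 463 sites with a tract, or 32.6% (28.5 to 37.0%), and 5051 of 24824 other sites, or 20.3% (19.9 to 20.9%). The difference was 12.3 percentage points (8.12 to 16.7, Newcombe interval). However, member peaks were wider than other peaks, with medians of 330 and 279 bp. Compared within deciles of site width, the difference was 3.12 points (−0.992 to 7.52), an interval that includes 0. Without the window of chromosome 21 the 2 differences were 10.6 and 2.59 points. The paper called peaks in each timepoint and reports 33295 in all, as many as are listed. Which timepoint each overlapping peak came from is not marked in the list.

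Depth went with the flank too. Of AC tracts with a peak, 40 of 219 lay in a site of depth 2 or more where flank steps were under 20%, or 18.3% (13.7 to 23.9%), and 93 of 194, or 47.9% (41.0 to 54.9%), where they were 20% or more. The AG class had 4 of 17 and 84 of 124 tracts, and without the window 4 of 17 and 31 of 68. Site width was not held equal in these counts, and a site with several tracts was counted once for each. At flank steps of 30% or more, 130 AC tracts lay in 108 sites and 103 AG tracts in 54. In sites of depth 2 or more, the number of peaks over the tract reached the depth of the site for 89 of 227 tracts, or 39.2% (33.1 to 45.7%).

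A depth of 4 or 5 was found in 9 sites with a tract. Of the 463 sites with a tract, 6 had a depth of 4, or 1.30% (0.595 to 2.80%), against 0.935% of other sites. Depth 5 was reached by 3, or 0.648% (0.221 to 1.89%), against 0.435%. Those of depth 5 included an intergenic one, 126 kb from IRX1 (chr5:3727533-3728188), and one in intron 1 of NTM, which encodes a neural adhesion molecule (chr11:131680384-131680791). In both of these, an AC tract at the edge was covered by 1 peak only, with 13 and 4 bp of it inside. Of the 6 sites of depth 4, 3 lay in the window of chromosome 21.

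AC tracts with a peak lay more often in genes than AC tracts without one. Of 413, 223 overlapped a protein-coding gene, or 54.0% (49.2 to 58.7%), against 43.7% of AC tracts without a peak of the same length, and 46.0% when those were limited to tracts within 500 kb of another peak. In the AG class 41 of 141 did, or 29.1%, against 39.5%, but outside the window, which holds no protein-coding gene, it was 41 of 85, or 48.2% (37.9 to 58.7%), against 39.9%. Peaks in general lie in genes: 52.5% of all autosomal peaks overlapped a protein-coding gene, with 48.5% (44.4 to 52.6%) of member peaks and 52.6% of the others. The share of member peaks in genes was thus no higher than that of the other peaks.

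AC tracts with a peak also lay closer to start sites of genes than those without. AC tracts with a peak had a median distance of 44.7 kb to the nearest start site and those without 100 kb, and 48 of 413, or 11.6% (8.88 to 15.1%), lay within 5 kb against 5.67%. Set against other peaks, 47 of 573 member peaks were within 5 kb, or 8.20% (6.22 to 10.7%), and 6.01% (5.75 to 6.27%) of the other autosomal peaks, with medians of 54.3 and 50.1 kb. Without the window the share of member peaks was 8.77% (6.66 to 11.5%), and the order of the medians turned, 48.0 kb for members and 50.0 kb for the others. For AG tracts outside the window 4 of 85 were within 5 kb, or 4.71% (1.85 to 11.5%), against 6.03%. Exons were rarely involved, with 18 of 567 tracts, or 3.17% (2.02 to 4.96%), against 2.40%.

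Within protein-coding genes, the letters AC stood on the coding strand for 69 of 218 AC tracts with a peak, or 31.7% (25.8 to 38.1%), and for 41.8% of 29512 without. GT was thus the more frequent reading of the coding strand in both groups, and more so in the peaks. For AG tracts 13 of 39 had AG on the coding strand, or 33.3% (20.6 to 49.02%), against 49.3%.

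What lay next to the tract differed by class of neighbour. An AT tract of 12 bp or more was found within 50 bp of 12 of 413 AC tracts with a peak, or 2.91% (1.67 to 5.01%), against 8.78% of those without. An AG neighbour was as frequent with a peak, at 8.47% (6.16 to 11.6%), as without, at 8.01%. AG tracts with a peak had an AC neighbour in 7.80% of cases against 25.2%, and outside the window in 12.9% (7.38 to 21.7%) against 24.8%. An AG tract had an AT neighbour in 4 of 141 cases, or 2.84%, against 12.7%, and in 4.71% (1.85 to 11.5%) against 12.6% outside the window.

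**Figure D5:**
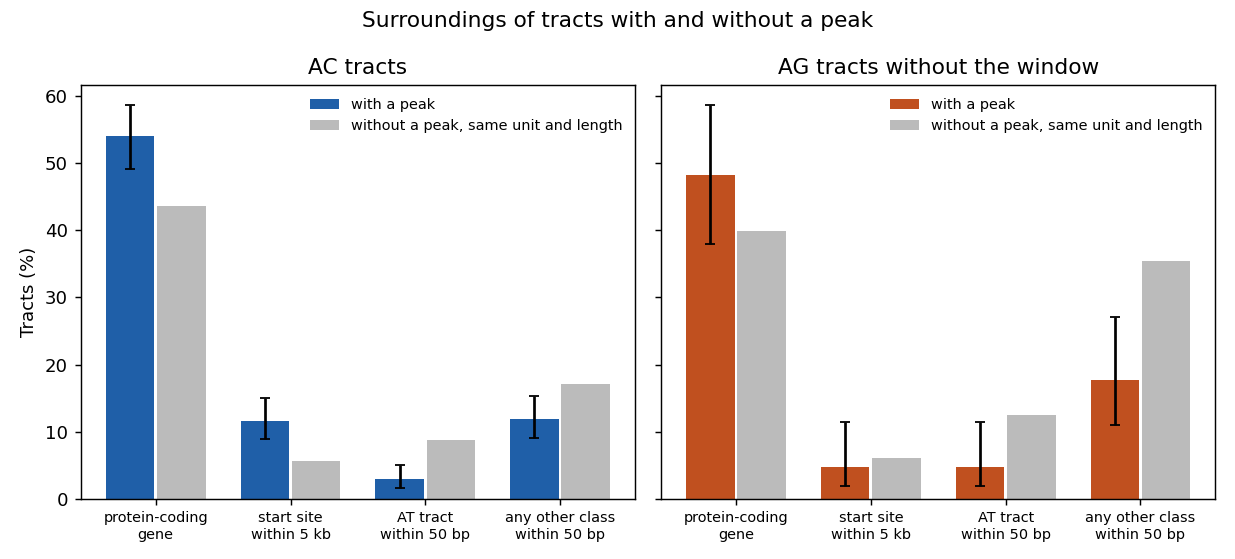
Share of tracts (%) with a given surrounding, for tracts with a peak (coloured, with 95% Wilson intervals) and for tracts without a peak of the same unit and length (grey), in 413 AC tracts (left) and the 85 AG tracts outside the window of chromosome 21 (right). AC tracts with a peak are more often in protein-coding genes (54.0% against 43.7%) and near start sites, and fewer have an AT tract within 50 bp (2.91% against 8.78%).

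Base composition of the surroundings varied as well. The 250 bp on either side of AC tracts had a median of 59.0% A and T with a peak and 61.0% without. The share of AC tracts with a peak was 1.09% (0.856 to 1.39%) where this was under 50%, near 0.6 to 0.7% from 50 to 65%, and 0.119% (0.0545 to 0.259%) at 70% or more. Member peaks as a whole contained 56.9 ± 6.40% A and T (SD over 573 peaks) and other autosomal peaks 59.8 ± 5.91%.

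Tracts made up little of most member peaks. The median was 7.48% of the peak's bases, with quartiles of 4.48 and 10.4% and a highest value of 35.3%. One tract was held by 505 of the peaks, 47 held 2, and 21 held 3 or more. Of all autosomal peaks 9.46% were tandem arrays, with 49 members, or 8.55% (6.53 to 11.1%), and 9.48% of the other peaks. Without the window 35 of 536 members were arrays, or 6.53% (4.73 to 8.95%), against 9.47% (9.15 to 9.79%) of the others.

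The densest group lay in the window of chromosome 21. It holds the annotated ribosomal genes RNA5-8SN1, RNA5-8SN2 and RNA5-8SN3 and a further copy. Ribosomal RNA genes exist as near-identical tandem copies, so the position of a read among them is uncertain, and hg38 represents only part of the array. In this window 60 of 111 tracts had a peak, 56 of them among its 89 AG tracts, or 62.9%. All 56 read CT on the reference strand, the strand of the 4 annotated genes. The strand of the window's AG tracts without a peak was not counted, so no preference of the peaks can be read from this. The 60 tracts lay between 8220032 and 8465351 in 14 sites, 12 of which had a depth of 2 or more. The 37 member peaks were up to 2618 bp wide. Of the 60 tracts, 49 had their next 40 bp in common with another member tract of the window. The rest of chromosome 21 had a peak on 7 of 1468 tracts, or 0.477%.

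The peaks with the most tract bases in the whole set came from here, with 273 bp (chr21:8228147-8230764), 245 bp (chr21:8455284-8457811) and 199 bp (chr21:8459751-8462269) in tracts. Parts of them around their longest AG tracts are shown side by side.
Stretch 1, 43 bp tract (chr21:8230375-8230547): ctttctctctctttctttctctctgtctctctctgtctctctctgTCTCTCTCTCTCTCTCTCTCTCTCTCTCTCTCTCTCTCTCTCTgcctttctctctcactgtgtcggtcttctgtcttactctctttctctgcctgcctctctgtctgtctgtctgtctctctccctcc
Stretch 2, 45 bp tract (chr21:8457517-8457691): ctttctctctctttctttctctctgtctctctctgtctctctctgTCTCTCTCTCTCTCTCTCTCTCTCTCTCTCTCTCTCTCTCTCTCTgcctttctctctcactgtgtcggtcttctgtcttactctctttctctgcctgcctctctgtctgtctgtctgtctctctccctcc
Stretch 3, 38 bp tract (chr21:8461287-8461454): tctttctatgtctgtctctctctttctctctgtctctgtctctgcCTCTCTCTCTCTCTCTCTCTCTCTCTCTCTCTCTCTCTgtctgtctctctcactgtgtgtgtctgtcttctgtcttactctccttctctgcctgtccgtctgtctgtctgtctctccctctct
Stretches 1 and 2 were identical in the 45 bases before and the 85 after the tract, and their tracts differed in length. Stretch 3 was also CT-rich. Compared base by base with no shift or gap allowed, it had 40 mismatches to stretch 1 in the 45 bases before the tract. In the 85 after it there were 22. A shift between alternating sequences raises such counts, and how alike the stretches are when aligned was not tested.

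By chromosome the share of tracts with a peak ran from 0.150% (chromosome 4, 11 of 7357) and 0.154% (chromosome 13, 6 of 3886) to 1.02% (chromosome 22, 12 of 1173), apart from chromosome 21 with 4.24%. Outside that window, the largest count in 1 Mb was 10 tracts in 2 sites on chromosome 1.

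Of 19111 protein-coding genes on the autosomes, 9837 held a tract. A member peak lay in 218 protein-coding genes, with 1 in 158 of them, 2 in 42 and 3 or more in 18. Whether these numbers exceed what the tracts and peaks per gene would give was not tested. AHDC1 and AMPD3 were among the genes with 4. ABCD3 and NBPF20 had 3 each, tied with other genes, among them KATNAL1, TDRD12 and EGFR. In TDRD12 and EGFR all 3 peaks fell in 1 site. In AHDC1, which encodes a DNA-binding protein, 3 AC tracts of 20 to 24 bp in intron 3 had a peak, with flank steps of 31.8 to 34.8%. AMPD3, an AMP deaminase, had 3 tracts with a peak, among them a 21 bp AC tract in its exon 15. NBPF20 belongs to a family of near-identical copies on chromosome 1, where the assignment of reads is uncertain. Among genes over 100 kb, ABCD3, a transporter of the peroxisomal membrane, had the highest density of member peaks with 2.99 per 100 kb, followed by KATNAL1, a microtubule-severing protein, with 2.86 and TDRD12, a gene of the piRNA pathway, with 2.73. In ABCD3 both tracts, in introns 1 and 16, had flank steps under 20%.

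Over all protein-coding genes, with a tract counted once per gene it overlaps, 298 of 46338 tracts had a peak, or 0.643%. Of 15 genes in which a dinucleotide repeat is known from textbooks as polymorphic or regulatory, 13 held 64 tracts, and 1 of these, in EGFR, had a peak, or 1.56% (0.276 to 8.33%). The interval includes the share over all genes. The 64 tracts were all perfect tracts within the annotated genes, and whether any of them is the known repeat was not checked. Repeats outside the annotated genes were not counted. EGFR encodes the receptor of epidermal growth factor. The tract with a peak was the AC tract of intron 1 printed above (chr7:55095722-55095742), covered by 3 peaks, with flank steps of 56.6%. HMOX1, CFTR, IGF1, IFNG, TLR2, NOS2, HSD11B2 and AVPR1A held tracts and no peak of any kind. COL1A2, ESR2, NFKB1 and STAT6 held peaks that did not overlap a tract. MMP9 and SLC11A1 held no perfect tract of 20 bp.

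A second list held large genes at common fragile sites. Its 10 genes (among them FHIT, WWOX, IMMP2L, LRP1B, CNTNAP2, DLG2, MACROD2, LSAMP and NAALADL2) held 728 tracts, from 29 in IMMP2L to 114 in CNTNAP2. Of these tracts 1 had a peak, or 0.137% (0.0243 to 0.774%), also an interval that includes the share over all genes, among 31 peaks in total in the 10 genes. The exception was LRP1B, a receptor of the LDL receptor family, with a 31 bp AC tract in intron 3 (chr2:141324029-141324059) under 1 peak and flank steps of 50.5%.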

How the data were processed

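The data are the BrdU peaks of synchronized BJ-hTERT cells. The deposited list gives positions in bp on hg38 and no signal or read count. The authors aligned reads to hg38 and called peaks against Input DNA; the submitters' processing notes name Bowtie2 2.3.3.1, SAMtools 1.4 and MACS2 2.1.0. The methods state that repeats were checked for correlation and then analysed as one; which peaks of the list came from which repeat is not marked. No count of depth exists, so precision per peak is unknown. Reads that map equally well to several copies of a repeat cannot be placed with certainty, and how they were handled is not given with the list.

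File starts were taken as 0-based, and printed positions are 1-based. Perfect tracts of a 2 bp unit of 20 bp or more were found in the hg38 sequence of the 22 autosomes, with no repeat masking. Genes came from GENCODE version 44, with introns and exons numbered in the canonical transcript. A tract had a peak when they shared at least 1 bp. The shares of tracts without a peak given for comparison were weighted to the members' unit class and length, in classes of 2 bp up to 60 bp. Newcombe intervals were computed for differences in depth that were not taken within deciles of site width. For the differences within deciles and those in gene shares, the interval is the members' Wilson bounds minus the comparison share. It leaves out the error of the comparison group. No significance test was run. The tract finder and the overlaps were tested on simulated data. Python 3.11.15, numpy 2.4.6, pandas 2.3.3, scipy 1.17.1 and matplotlib 3.10.9 were used.

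The members and the gene lists were chosen with earlier results of these data known. The sites named are, per class, those with the longest tract and with the tract nearest the median length, the 5 deepest sites, the 3 peaks with the most tract bases, the 5 genes with the most member peaks, the 3 genes over 100 kb with the most per 100 kb, and every gene of both lists; some of these and their sequences are not reported here, and the sequences of EGFR, the median AC tract and the ribosomal copies were added after their values were seen. The flank steps, flank composition, neighbouring tracts, orientation, coverage around tracts, tracts under 20 bp and the analysis without the window of chromosome 21 were also added after the data were seen. Genes named with 3 member peaks were tied with others that are not all named. Alternatives covered tract length, overlap rule, merged sites, peak width, joined tracts, tandem arrays, comparison tracts, genes and site width.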

Additional observations from a re-analysis of the deposited data

How the results depend on the processing

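Of 81 values of 10 results recomputed under an alternative, 55 stayed within the interval of the value reported (for numbers of peaks, within 1.5 times), 26 moved out of it and 0 changed sign where the interval excluded 0. A minimum tract length of 12 bp gave 2499 member peaks, a peak on 1.60% of AC and 1.35% of AG tracts, a median AT length difference of -1 bp, a central position for 18.4% of tracts and a depth difference of 22.7 points. A minimum of 30 bp gave 244 peaks, 0.473% of AC and 0.0108% of AT tracts, an AT length difference of -8 bp (a single tract) and a depth difference of 6.27 points. With the whole tract inside the peak, 0.429% of AC and 0.871% of AG tracts had one and 19.9% were central; with only its midpoint inside, 0.510% of AC tracts did. Peaks at or above the median width gave 362 members, 0.380% of AC and 0.857% of AG tracts, and 17.7% central. Joining tracts across up to 4 bp gave 1.22% of AG tracts. Restricting to tracts within 500 kb of a peak without a dinucleotide tract gave 0.758% of AC and 1.30% of AG tracts. Within deciles of site width the depth difference was 3.12 points, and 2.59 points without the window of chromosome 21 as well. Without that window, an alternative added after the data were seen, 0.626% of AG tracts had a peak and the excess of member tracts in protein-coding genes was 10.6 points instead of 5.34. The same excess was 3.08 points (-1.0 to 7.19) against comparison tracts within 500 kb of a peak and 3.98 points (-2.45 to 10.5) for tracts of 30 bp or more, both intervals including 0. The shorter minimum and the stricter overlap change the numbers by taking more or fewer tracts; the cause of the other changes was not tested. In every alternative that recomputed them, AT tracts had the lowest share of the AC, AG and AT classes and the median AC tract with a peak was shorter than that without. No paired analysis was possible because samples and repeats are not marked in the file, and leaving out a replicate was not possible for the same reason. A stricter caller threshold was not run, since the list has no score.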
